A study of Mus musculus with 24 samples.

Results

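Differentiation of C2C12 cells under a negative control siRNA was described from 6 of the 24 arrays of the series. C2C12 is an established line of mouse myoblasts, the precursor cells of skeletal muscle. Both groups hold 3 arrays, chosen by their titles. Proliferating cells (MB) had grown attached in DMEM with 20% fetal bovine serum. Differentiating cells (D48) had been taken at 80% confluence and kept for 48 h in DMEM with 2% horse serum. All 6 samples carried the negative control siRNA, and no deletion or transgene was given in the labels. The series asks how loss of cilia, by siRNA against IFT88 (IFT88KD), bears on myoblasts that proliferate, rest in suspension (G0), re-enter the cycle or differentiate. The labels do not say that arrays of a group came from separate cultures, so p-values measure only the spread between arrays, which may be technical. That spread was pooled for each gene over all 24 arrays of the series. Every array is RNA of a whole culture, in which fewer cells of a type and less RNA per cell cannot be told apart.

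Myoblasts that lose growth factors leave the cell cycle, switch on Myog downstream of Myod1 and Myf5, and fuse into multinucleate myotubes that assemble sarcomeres. Myod1, Myf5, Myog and Myf6 encode helix-loop-helix factors that pair with E proteins, bind E-box motifs and act together with Mef2 factors. Id proteins lack a DNA-binding region and hold E proteins away from them. A myotube does not divide again, and Cdkn1a, Cdkn1c and the retinoblastoma protein take part in that exit.

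Values are log2 signals of an Affymetrix mouse array, with 1 probe set per gene, and a change is the D48 mean minus the MB mean on that scale. Levels of different genes cannot be ranked against each other from such signals. A gene was called higher or lower where limma gave an adjusted p under 0.05, and 8600 of 12393 genes passed the filter on low signals and were tested. The median signal lay between 3.58 and 3.62 on the MB arrays and between 3.68 and 3.72 on the D48 arrays. Across genes, arrays of the same group correlated at 0.991 to 0.997 and arrays of different groups at 0.956 to 0.974.

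At 48 h 4708 genes had changed, which is 54.7% of those tested. They divide into 2102 higher genes (24.4%) and 2606 lower genes (30.3%). Counts of the gene lists below are to be read beside these shares. Rises were the larger: 644 genes (7.49%) were called and rose by at least 1 log2, and 535 (6.22%) were called and fell by as much. Against a null of 1 log2 (limma's treat) 323 genes were higher and 170 lower. The median change over all genes was -0.06. The 3 D48 arrays lay wholly above or below the 3 MB arrays for 5313 genes (61.8%).

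The labelled cell type was checked against its markers. Of 10 myoblast markers 8 were measured, among them Myod1, Myf5, Des and Cdh15 (a muscle cadherin), and 7 of the 8 were higher at 48 h. All 12 markers of muscle fibres were measured and higher, with a median change of 5.09. Leukocyte, endothelial and epithelial markers were near the floor of the arrays: Ptprc, Itgam, Adgre1, Lyz2, Pecam1, Cdh5, Kdr, Epcam and Cdh1 did not pass the filter. Of 5 measured macrophage markers 0 were higher and 1, Cd14, was lower (-0.58). Cardiac markers, of which 4 passed the filter (Gata4, Nkx2-5, Mybpc3 and Tnni3), gave 0 calls.

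The 3 MB arrays were not alike in muscle genes and in some other genes, and this touches the rises given below. Among MB arrays 35 genes spanned at least 2 log2, against 1 gene among D48 arrays. Of these 35 genes 32 were lowest on replicate 1 and highest on replicate 3, and 30 of the 35 were higher at 48 h. Tnnc2, which encodes the fast troponin that binds calcium, read 2.87, 5.57 and 6.90 on MB replicates 1, 2 and 3. Genes outside the muscle lists shared this order, among them Selenop, C1qtnf3 (4.09, 5.92 and 6.98) and Dpep1 (1.73, 2.83 and 3.79). Serpinb2, Fos and Plp2 went the other way, highest on replicate 1 and lowest on replicate 3. The proliferating IFT88KD arrays showed the same order for 24 of their 28 genes of such a span. Each SE and p pools the spread of all 8 groups. For genes that spread this widely in MB and little elsewhere, both are likely too small. The part of this spread in the results was not tested. The change without MB replicate 1 is therefore given beside that of many, though not all, of the genes which lead a muscle group.

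Genes of the sarcomere, calcium handling, muscle energy supply and fusion made up most of the 15 largest rises. Mybph, which encodes a myosin-binding protein, read 1.61, 3.38 and 4.76 on the MB arrays and 10.78, 10.46 and 10.54 on the D48 arrays. It rose by 7.34 (SE 0.59, adjusted p = 1.6e-09), and by 6.52 without MB replicate 1. Behind it came Myl4 (7.11, and 6.38 without MB replicate 1), an embryonic myosin light chain, Myh7 (6.69, and 6.34), slow myosin heavy chain, Casq2 (6.58, and 6.0), a calcium store protein, and Myh3 (6.49, and 5.53), embryonic myosin heavy chain. Myom2, Tnnc2, Ckm, Myoz2, Itgb1bp2, Hrc, Smpx, Myom1, Ryr1 and Mymk completed the 15 largest rises, at 5.61 to 6.32. Several of these, such as Myoz2, Smpx and Myom1, lay under the filter percentile on all 3 MB arrays, so the size of their rise is uncertain.

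The 15 largest falls were genes of varied function. Car8, a carbonic anhydrase relative without enzyme activity, fell by 4.77 (SE 0.22, adjusted p = 2.99e-13), from 6.77, 5.97 and 5.77 to 1.20, 1.70 and 1.31. Aqp1, a water channel, fell by 4.61 (SE 0.20), from 8.15, 7.87 and 7.67 to 3.24, 3.33 and 3.29. For both genes every D48 array was far below every MB array. Serpinb2 fell by 4.20 (SE 0.58), and by 3.53 without MB replicate 1. Id3, Nqo1, Id2, Tafa5, Fosl1, Selp, Crybg1, Pdk4, Abcb1b, Ccnd1, Cd24a and Hmga2 made up the rest of the 15, with changes of -2.62 to -4.14.

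**Figure D1:**
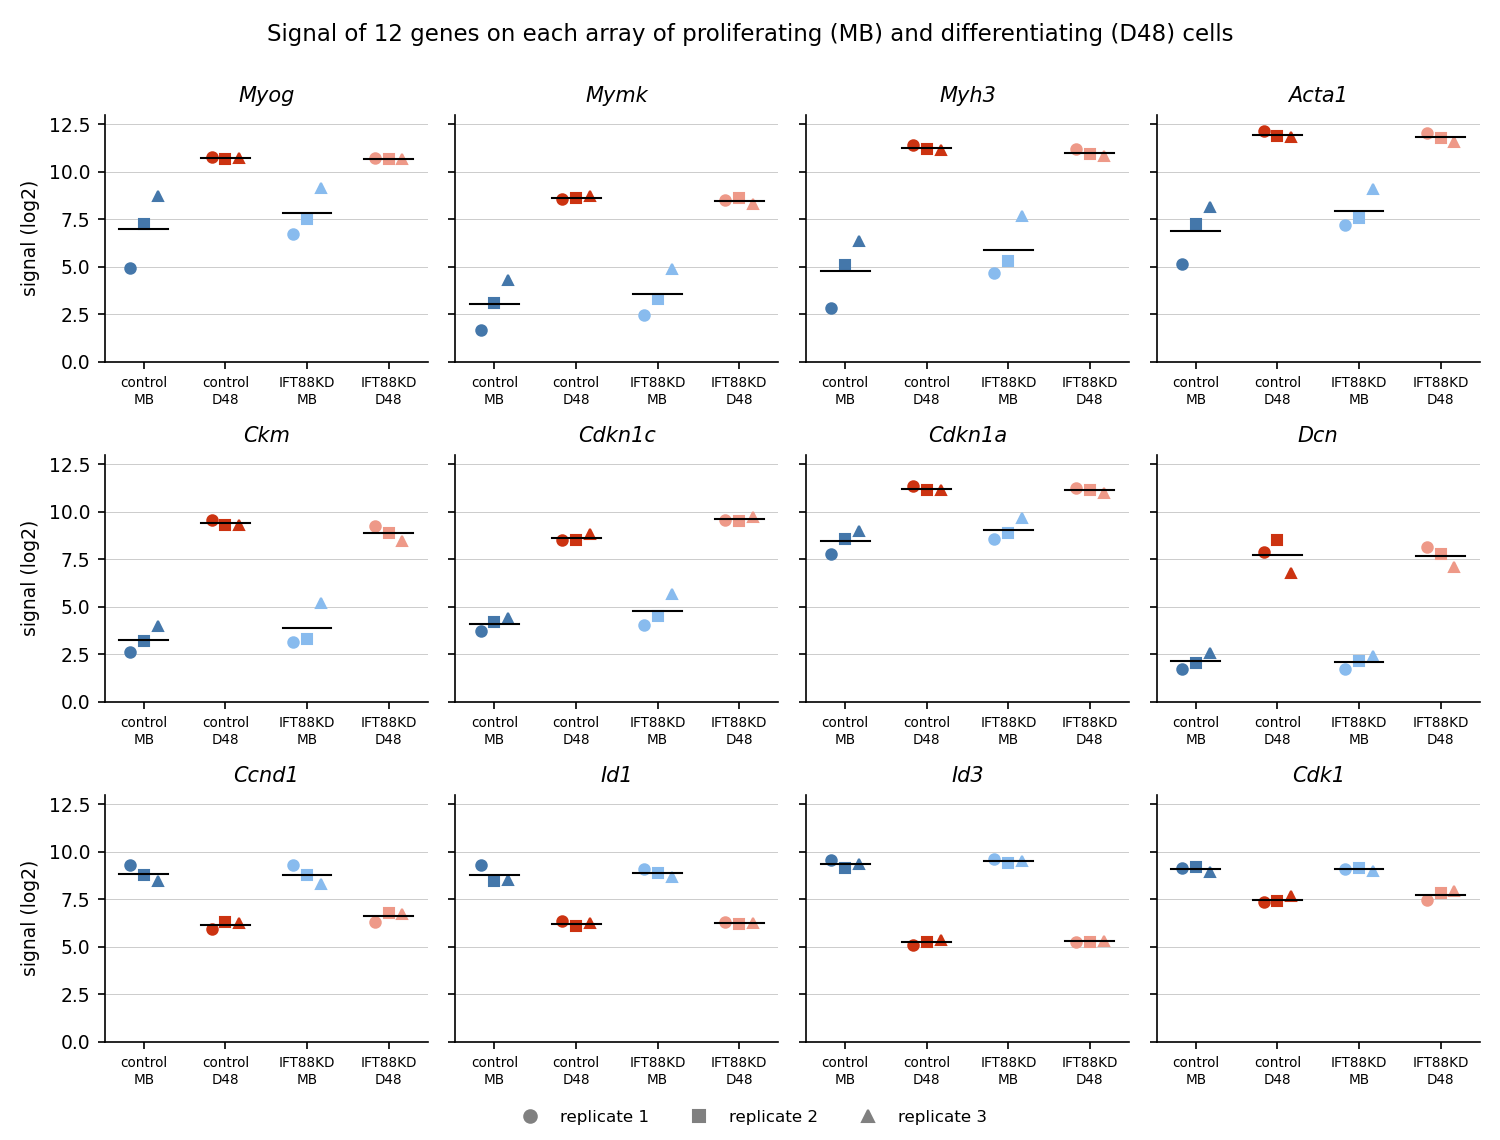
Log2 signal of 12 genes on each array of proliferating (MB) and differentiating (D48) cells given control or IFT88 siRNA. Points are arrays with the symbol giving the replicate number, and bars are group means. Myog and Myh3 spread widely over the control MB arrays (4.94 to 8.74 for Myog) and narrowly over the control D48 arrays (10.69 to 10.75), while Id3 and Ccnd1 stood lower on every D48 array.

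Among the myogenic factors themselves 3 of 4 passed the filter. Myog read 4.94, 7.26 and 8.74 on the MB arrays and 10.75, 10.69 and 10.71 on the D48 arrays. It rose by 3.74 (SE 0.59, adjusted p = 1.68e-05), and by 2.72 without MB replicate 1. Even the highest MB array lay below all D48 arrays. Myod1 rose by 0.70 (SE 0.19, adjusted p = 0.00347), from 7.78, 7.77 and 8.29 to 8.88, 8.35 and 8.72. Myf5, the factor of the earlier myoblast, fell by 1.15 (SE 0.13, adjusted p = 2.69e-07), from 6.41, 6.17 and 6.32 to 5.35, 5.06 and 5.04. Its groups did not overlap. Myf6, the factor of mature fibres, did not pass the filter.

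Of 12 measured Mef2 factors and cofactors of muscle transcription 9 rose and 1 fell, with a median change of 1.56. Mef2c rose by 3.78 (SE 0.28, adjusted p = 5.31e-10), from 3.87, 4.03 and 4.60 to 7.44, 8.20 and 8.19. Mef2a rose by 1.66 and Mef2d by 1.46. Tead4, which binds MCAT elements of muscle genes, rose by 2.49, Smyd1, a muscle methyltransferase that sarcomere assembly needs, by 2.44, and Rbm38, an RNA-binding protein of the Cdkn1a transcript, by 2.34. The member that fell was Mbnl1 (-1.17), a splicing regulator.

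Factors that hold the myogenic proteins back moved unevenly, with 6 of 13 lower (46.2%) and 3 higher (23.1%). Of all genes 30.3% were lower and 24.4% higher. The Id genes carried the falls. Id3 read 9.58, 9.17 and 9.38 on the MB arrays and 5.09, 5.28 and 5.35 on the D48 arrays, a 17.6-fold fall (log2 change -4.14, SE 0.29, adjusted p = 2.03e-10). Id2 fell by 3.25 and Id1 by 2.55, and Twist2, a repressor of Myod1 and Mef2 activity, by 1.87. Id4 stayed under the filter percentile on all 6 arrays (-0.20, adjusted p = 0.334). Zeb1, an E-box repressor, rose by 1.32 (SE 0.14) and Bhlhe40 by 0.87 (SE 0.14). Twist1 (-0.51) lost its call without MB replicate 1 (-0.33, adjusted p = 0.107) or D48 replicate 3 (-0.45, adjusted p = 0.0532). Hes1 (-0.42) lost it without MB replicate 2 (-0.34, adjusted p = 0.0654) or D48 replicate 1 (-0.30, adjusted p = 0.0876).

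The sarcomere was covered by 3 lists of 93 genes, of which 64 passed the filter. Of these 53 rose, 45 of them by at least 1 log2, and 4 fell, with a median of 3.11. Members such as Actn2 lay under the filter percentile on all MB arrays and passed only through other groups, so this count is a description. Genes of the other muscle lists could likewise pass the filter through the D48 arrays alone, so their counts are descriptions too. Within replicate numbers 1, 2 and 3 the median change of the 64 genes was 3.57, 2.79 and 2.61. The number higher was 50 without MB replicate 1, 53 without replicate 2 and 51 without replicate 3.

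Of 10 measured myosin and myosin-binding genes 8 rose and 0 fell, with a median of 5.37. Myh3 read 2.85, 5.12 and 6.33 on the MB arrays and 11.41, 11.19 and 11.17 on the D48 arrays. Mylpf, the fast regulatory light chain, read 4.94, 6.80 and 8.15 against 11.90, 11.65 and 11.58, a rise of 5.08 (SE 0.56, adjusted p = 1.42e-07) and of 4.23 without MB replicate 1. Both genes show the MB order described above and no overlap. Adult fast Myh1 rose by 5.36 and perinatal Myh8 by 3.06, each from under the filter percentile. The adult fast genes Myh2 and Myh4 did not pass the filter.

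Troponins and sarcomeric actins rose together with them, 14 of 18 higher and 2 lower with tropomyosins counted in. Acta1, skeletal actin, read 5.16, 7.26 and 8.17 on the MB arrays and 12.15, 11.89 and 11.81 on the D48 arrays, a rise of 5.09 (SE 0.51, adjusted p = 4e-08) and of 4.24 without MB replicate 1. Actc1, the cardiac actin that embryonic skeletal muscle also makes, rose by 4.85. Without MB replicate 1 its rise was 3.88. Tnnc2 rose by 6.25, Tnni2 by 5.21, Tnnc1 by 5.15 and Tnnt3 by 5.10. Without MB replicate 1 these values were 5.13, 4.47, 4.33 and 4.32, and for each gene the D48 arrays differed from one another by less than 0.4. Lmod2, which lengthens thin filaments, rose by 4.45 from under the filter percentile.

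Of 36 measured genes of the Z-disc, M-band and costamere 31 rose and 2 fell. Myom2 and Myom1, the bridges of the M-band, rose by 6.32 and 5.64. Csrp3 rose by 5.28, Actn2, the actin crosslinker of the Z-disc, by 5.22 and Ankrd2, a stretch-responsive protein, by 5.16. Ttn, the giant spring of the sarcomere, read 4.63, 6.62 and 7.82 on the MB arrays and 10.62, 10.39 and 10.70 on the D48 arrays and rose by 4.21, and by 3.35 without MB replicate 1. Des, the intermediate filament of muscle, rose by 1.08 (SE 0.18), from MB arrays that already read 8.40 to 9.25.

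The 4 sarcomere genes called lower, Tpm1, Tpm3, Pdlim5 and Pdlim7, each had another probe set that rose. Tropomyosins and these PDZ-LIM proteins are made in muscle and nonmuscle forms by alternative splicing. The Tpm3 probe set used fell by 0.74 (SE 0.11), from 9.97, 10.06 and 9.94 to 9.30, 9.29 and 9.16. Another rose by 3.04 (SE 0.15, adjusted p = 2.32e-12), from 2.21, 2.15 and 2.28 to 5.33, 5.45 and 4.97. For Tpm1 the one used changed by -0.35 and 2 others by 0.74 and 1.31. Pdlim7 gave -0.46 and 1.27, and Pdlim5 gave -0.77 against 1.86 and 2.11. Other probe sets were called lower too, 3 of Pdlim5 (-1.14, -1.12 and -0.84) and 2 of Tpm3 (-1.29 and -0.42). Both falls among genes of calcium handling, Asph (-1.15) and Atp2a2 (-0.31), were of the same kind. Atp2a2, the slow calcium pump of the sarcoplasmic reticulum, had probe sets at 2.22 and 2.55, and Asph had 2 at 2.19 and 2.70. Among all 3406 genes with at least 2 probe sets past the filter, 1457 had at least 2 called and 112 had calls in both directions. Probe sets also disagreed in size for called genes named elsewhere in the text: a second one changed by -0.60 for Car8, 0.21 for Mb, 0.17 for Ezr, 0.24 for Txnip, -0.43 for Lfng, 0.04 for Pi16, -0.01 for Zeb1, 0.01 for Bin1, -0.07 for Jam3 and -0.05 for Ptch1. Which transcript each probe set reads was not analysed here.

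**Figure D2:**
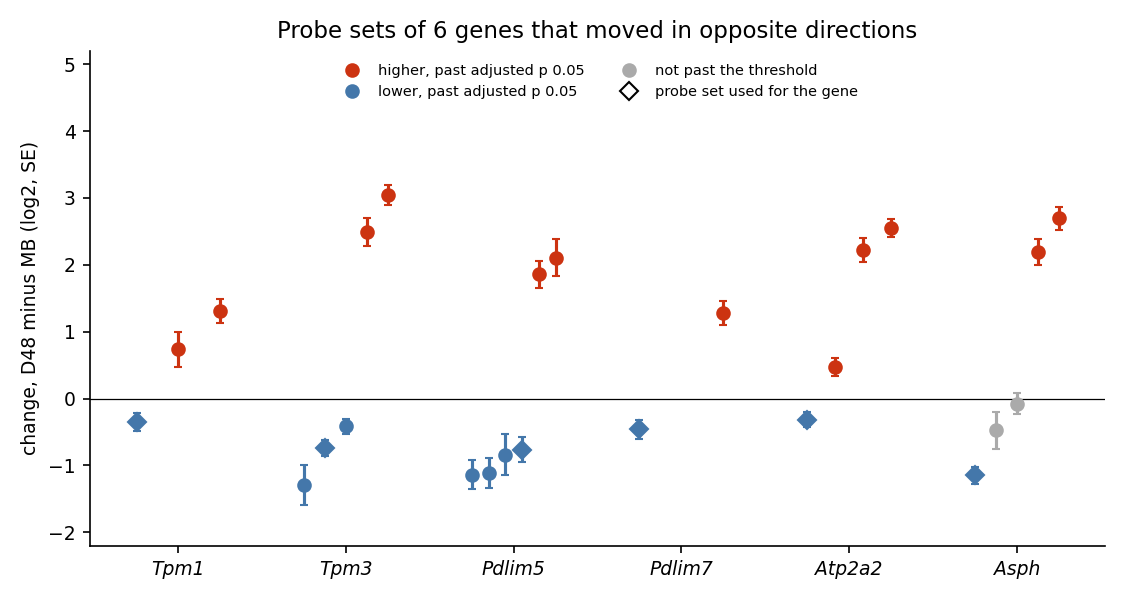
Change from MB to D48 (log2) of each probe set of 6 muscle genes, with the standard error. The diamond is the probe set that stood for the gene, and it was called lower for all 6 genes while at least 1 other probe set was called higher, by up to 3.04 for Tpm3.

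Coupling of excitation to contraction followed the sarcomere, with 16 of 19 measured genes higher and a median of 1.21. Of 26 such genes on the array 19 passed the filter, and the limit given for the sarcomere count holds here too. Ryr1, the calcium release channel, read 2.03, 2.29 and 3.10 on the MB arrays and 8.42, 8.06 and 7.82 on the D48 arrays, a rise of 5.63 (SE 0.37) and of 5.40 without MB replicate 1. Cacna1s, its voltage sensor, rose by 4.67, Atp2a1, the fast calcium pump, by 5.17 and Trdn, which anchors Casq2 at the channel, by 4.92. Of 10 measured genes of the acetylcholine receptor and neuromuscular junction 8 rose and 0 fell, by less. Chrng, the fetal receptor subunit, rose by 3.74, and by 3.33 without MB replicate 1. Chrnd rose by 1.96, Chrna1 by 0.75 (SE 0.13), Chrnb1 by 0.74, Musk by 1.01 and Rapsn by 1.09. The adult subunit Chrne did not pass the filter. In the dystrophin complex 12 of 17 rose and 0 fell, including Sgca (3.0) and Dag1 (1.71, SE 0.12). Cav3, muscle caveolin, led them with 5.33, and with 5.13 without MB replicate 1. Dmd itself did not pass the filter.

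Fusion genes were split, with 13 of 29 measured higher (44.8%) and 6 lower (20.7%), against 24.4% and 30.3% of all genes. Mymk, the membrane protein that myoblast fusion requires, read 1.70, 3.09 and 4.31 on the MB arrays and 8.59, 8.61 and 8.73 on the D48 arrays. It rose by 5.61 (SE 0.46, adjusted p = 2.43e-09), and by 4.94 without MB replicate 1. Dysf and Capn3, linked to membrane repair and muscular dystrophy, rose by 3.24 and 3.25, each from under the filter percentile. Bin1, which shapes T-tubules, rose by 1.63, Jam3 by 1.37, and the muscle cadherin Cdh15 by 1.35 (SE 0.23).

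Most genes of muscle energy metabolism rose, with 19 of 29 measured higher and 4 lower. Not all of them are specific to muscle, and Ldha is also on the glycolysis list. Ckm, muscle creatine kinase, read 2.64, 3.20 and 3.97 on the MB arrays and 9.59, 9.32 and 9.30 on the D48 arrays, a rise of 6.13 (SE 0.37) and of 5.82 without MB replicate 1. Cox8b and Cox6a2, muscle forms of cytochrome oxidase subunits, rose by 5.60 and 5.24, Mb (myoglobin) by 5.59, Pgam2 by 5.17 and Pygm, muscle glycogen phosphorylase, by 4.35. Pdk4, which restrains pyruvate dehydrogenase, was the largest fall of this group (-2.70). Of 27 genes of glycolysis and the hypoxia response 9 were lower and 5 higher, a share of lower genes near that of all genes, and the median of -0.15 was 0.13 within replicate number 1. Pkm, a pyruvate kinase, changed by -1.05, the glucose transporter gene Slc2a1 by -1.04, Ldha by -0.92 and Pgam1 by -0.83. The general respiratory chain and TCA cycle gave 8 higher and 16 lower of 84, with changes from -0.86 to 0.83.

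Windows of 250 bases before RefSeq starts (build GRCm38.p6) were read for Myog, Mylpf and Acta1, and further below for Cdk1 and Mcm5. These genes were chosen by name and not by the rank of their change. Both strands were searched for each motif. In the 3 muscle windows, printed 5′ to 3′ on the gene's strand, capitals mark matches to the E-box CANNTG, which includes CAGCTG, and to the MEF2 box, CTA and TAG with any 4 bases between them. The windows are chr1:134289754-134290003 (plus strand) for Myog, chr7:127211358-127211607 (plus strand) for Mylpf and chr8:123894776-123895025 (minus strand) for Acta1.
Myog: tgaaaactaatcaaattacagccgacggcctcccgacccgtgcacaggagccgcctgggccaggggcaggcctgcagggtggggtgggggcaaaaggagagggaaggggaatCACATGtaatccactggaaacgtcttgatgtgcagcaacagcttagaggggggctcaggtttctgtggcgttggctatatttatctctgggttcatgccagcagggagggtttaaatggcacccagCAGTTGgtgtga
Mylpf: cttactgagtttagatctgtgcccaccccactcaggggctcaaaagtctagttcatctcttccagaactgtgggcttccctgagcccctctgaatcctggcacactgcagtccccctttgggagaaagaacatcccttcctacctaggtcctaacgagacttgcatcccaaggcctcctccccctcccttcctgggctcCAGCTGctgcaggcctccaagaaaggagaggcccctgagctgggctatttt
Acta1: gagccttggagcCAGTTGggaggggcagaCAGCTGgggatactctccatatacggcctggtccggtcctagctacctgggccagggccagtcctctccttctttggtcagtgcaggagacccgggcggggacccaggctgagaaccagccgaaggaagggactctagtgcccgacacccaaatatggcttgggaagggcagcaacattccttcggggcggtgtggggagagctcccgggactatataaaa
Myog held CACATG and CAGTTG, the second 12 to 7 bases before its start, and Mylpf held CAGCTG 51 to 46 bases before. Acta1 held CAGTTG and CAGCTG over 200 bases upstream. None of these 3 windows matched the MEF2 box, as spelled above, on either strand. That spelling ends in a fixed G. The Myog window holds CTATATTTAT, which departs from it only at the last base. The lack of a match is therefore not shown to be the lack of a MEF2 site. Of the 53 sarcomere genes that rose, 42 had a window in the table, with 49 windows. CAGCTG was in 28.6% of these windows and in 11.9% of the 9004 windows of the genes tested. CANNTG was in 77.6% and 56.9%, and the MEF2 box in 14.3% and 2.75%. The pattern CC and GG with any 6 bases between them, far wider than the CArG box, whose inner bases are A or T, was in 81.6% and 81.0% and is no measure of that box. Over all 32851 windows of the table the 4 shares were 13%, 66.2%, 3.20% and 67.1%. A match is a run of letters and not shown to be a bound site.

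Genes of cell division were lower at 48 h. All 66 measured genes of G2 and mitosis were called lower, 55 of them by at least 1 log2, with a median of -1.35. The count of 66 held also without MB replicate 1, 2 or 3. Of 59 measured genes of DNA replication and nucleotide synthesis 57 fell and 0 rose, with a median of -1.29, and the exceptions were Orc3 and Orc4. Histones and chromatin proteins of cycling cells gave 24 lower and 0 higher of 29.

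Cdk1, the kinase that starts mitosis, read 9.17, 9.19 and 8.94 on the MB arrays and 7.34, 7.43 and 7.68 on the D48 arrays, a 3.07-fold fall (log2 change -1.62, SE 0.13, adjusted p = 1.15e-09). Mybl2, a transcription factor of late cell cycle genes, fell by 1.98, Nek2 by 1.83, Kif23, a motor of cytokinesis, by 1.72 and the kinase Aurkb by 1.70. Changes in the list ran from -1.98 to -0.45, a narrower span than the rises of muscle genes. Rrm2, the ribonucleotide reductase subunit that limits dNTP supply, fell by 2.10 (SE 0.17), from 10.16, 9.99 and 9.89 to 8.01, 7.58 and 8.13. Chaf1b fell by 2.01, Mcm5, part of the replicative helicase, by 2.00 and Exo1, a repair exonuclease, by 2.00. Mcm5 read 8.00, 7.81 and 7.62 on the MB arrays and 5.59, 5.85 and 6.0 on the D48 arrays, with no overlap. Hmga2, a chromatin protein of undifferentiated cells, fell by 2.62 (SE 0.30), Hmgb3 by 1.78 and Nasp, a histone chaperone, by 1.70.

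The same windows were read for Cdk1, at chr10:69352913-69353162 (minus strand), and Mcm5, at chr8:75109259-75109508 (plus strand). Here capitals mark the CCAAT box, the cell cycle homology region TTTGAA and the E2F sites TTTGGCG and TTCCCGC, on either strand.
Cdk1: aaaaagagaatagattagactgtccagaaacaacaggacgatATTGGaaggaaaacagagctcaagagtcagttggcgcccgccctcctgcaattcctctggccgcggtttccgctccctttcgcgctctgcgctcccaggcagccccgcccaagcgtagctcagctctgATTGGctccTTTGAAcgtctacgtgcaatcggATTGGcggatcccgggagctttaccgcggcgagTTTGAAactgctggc
Mcm5: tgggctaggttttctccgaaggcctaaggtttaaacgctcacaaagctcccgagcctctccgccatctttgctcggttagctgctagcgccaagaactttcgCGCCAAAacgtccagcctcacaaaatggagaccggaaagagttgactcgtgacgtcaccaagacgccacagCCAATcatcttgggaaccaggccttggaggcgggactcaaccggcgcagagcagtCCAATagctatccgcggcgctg
Cdk1 held 3 CCAAT boxes, read as ATTGG on this strand, and TTTGAA at 71 to 66 and 15 to 10 bases before its start. Mcm5 held 2 CCAAT boxes and 1 E2F site, read as CGCCAAA. Of the 66 mitosis genes 55 had a window, with 60 windows. CCAAT was in 70.0% of them and in 35.1% of the windows of all genes tested, and TTTGAA in 33.3% and 10.2%. The E2F site TTCCCGC was in 3.33% and 6.75%, TTTGGCG in 5.0% and 2.11%, and CAGCTG in 15% and 11.9%. Over all windows of the table CCAAT was in 33.8%, TTTGAA in 16%, TTTGGCG in 1.26% and TTCCCGC in 3.82%. The replication genes that fell, a set added after these shares were known, held TTCCCGC in 19% and TTTGAA in 12.1% of 58 windows. CCAAT was in 53.4% of these windows and TTTGGCG in 6.90%, so both were more frequent there too than among all genes tested.

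**Figure D3:**
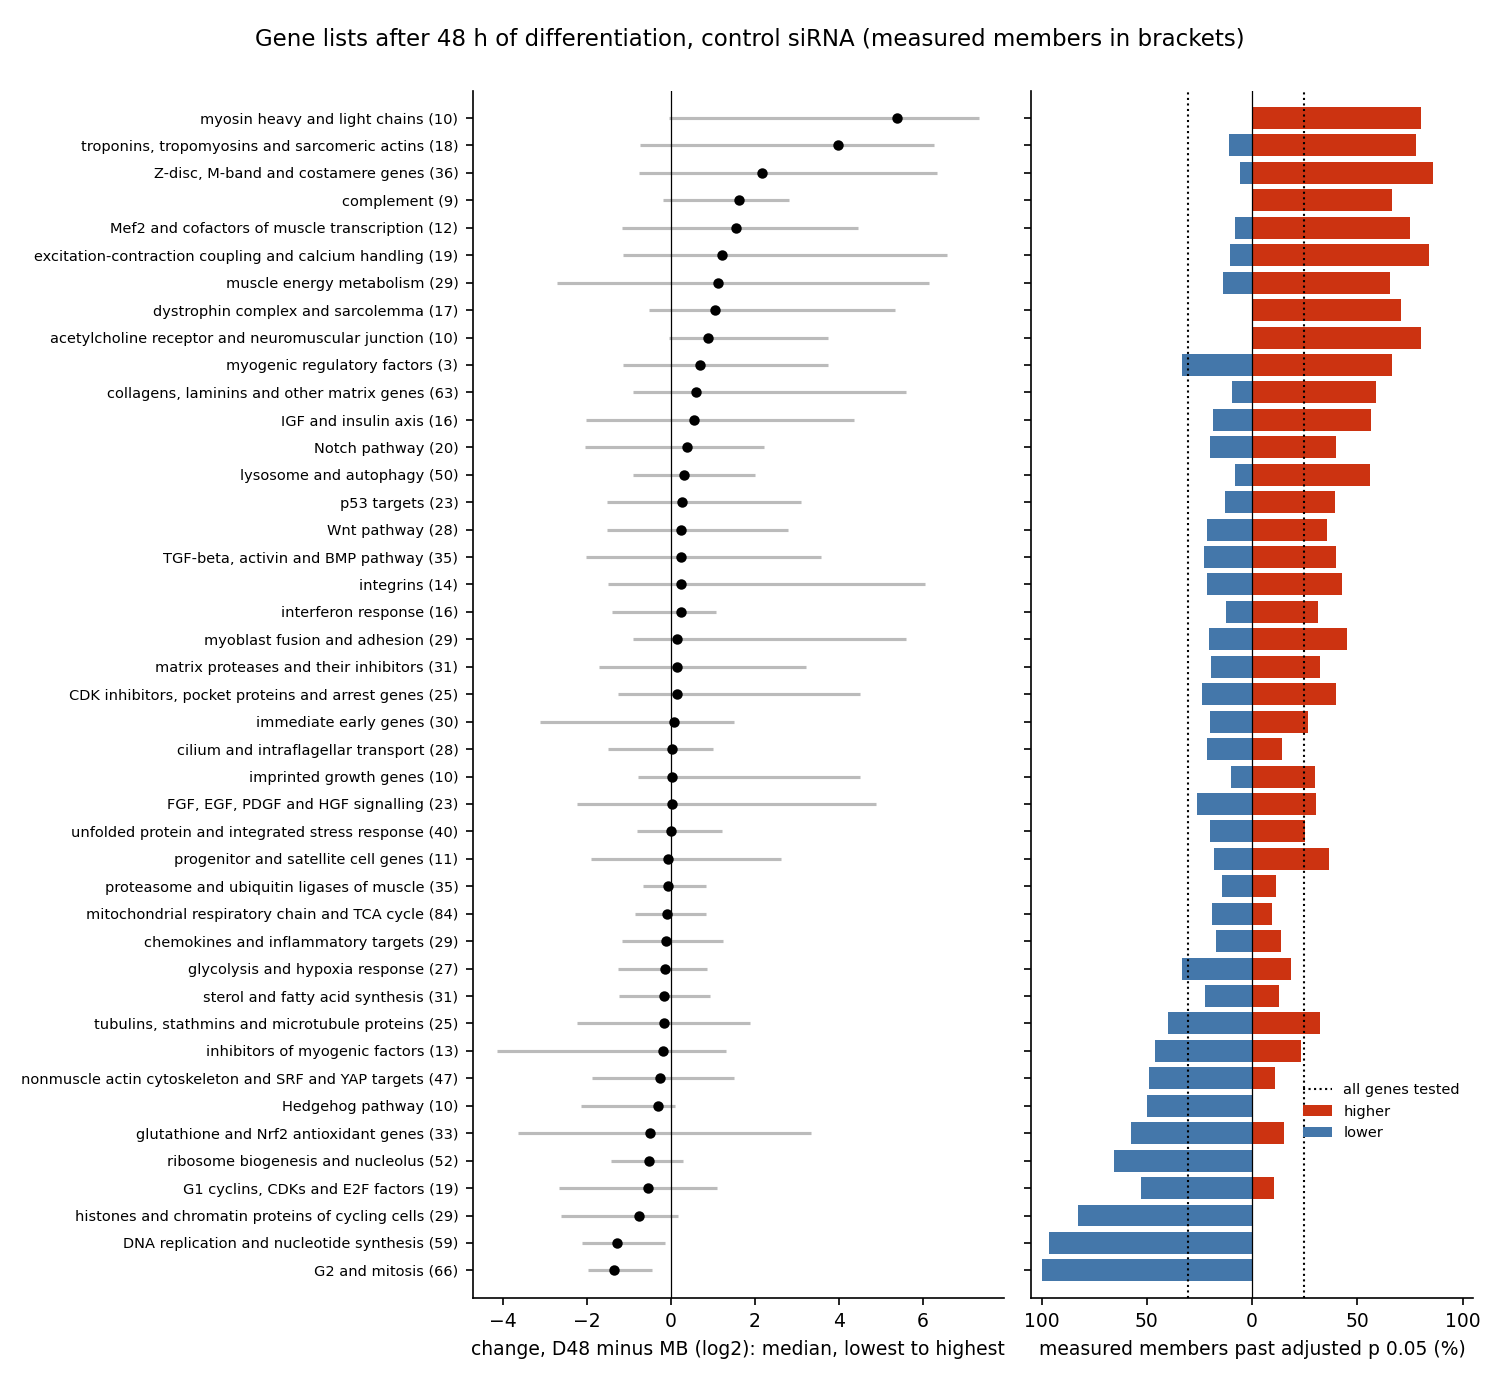
Left, the median change (log2, D48 minus MB, control siRNA) of each gene list as a point, with a line from the lowest to the highest member. Right, the percentage of measured members called higher (right of 0) or lower (left of 0), with dotted lines at 24.4% and 30.3% for all genes tested. Myosins stand at the top with a median of 5.37 and G2 and mitosis genes at the bottom with -1.35 and every member lower.

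The switches ahead of the cycle were selective. Of 19 measured G1 cyclins, kinases and E2F factors 10 fell and 2 rose. Ccnd1, the cyclin that mitogens induce, read 9.28, 8.78 and 8.45 on the MB arrays and 5.93, 6.33 and 6.24 on the D48 arrays, a 6.36-fold fall (log2 change -2.67, SE 0.25, adjusted p = 1.31e-08). Ccne2 fell by 2.10, Ccne1 by 1.62 and E2f1 by 1.15. Ccnd3, the D cyclin that differentiating muscle keeps, rose by 1.10 (SE 0.15), and Cdk2 rose by 1.03 (SE 0.11).

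Genes of arrest were as divided, with 10 of 25 measured higher and 6 lower. Cdkn1c (p57) read 3.74, 4.21 and 4.40 on the MB arrays and 8.51, 8.52 and 8.85 on the D48 arrays, a 22.8-fold rise (log2 change 4.51, SE 0.26, adjusted p = 8.34e-12). Cdkn1a (p21) read 7.79, 8.58 and 8.99 against 11.36, 11.13 and 11.16, a rise of 2.76 (SE 0.23). Neither gene's groups overlap. Cdkn1b (p27) changed by -0.01 (SE 0.16, adjusted p = 0.965), with 6.04, 6.63 and 6.57 on the MB arrays and 6.46, 6.55 and 6.20 on the D48 arrays. Cdkn2c fell by 0.59. Rb1 rose by 1.59 (SE 0.21) while its relative Rbl1 (p107) fell by 1.11 (SE 0.17) and Rbl2 (p130) changed by -0.14 (adjusted p = 0.566). Txnip rose by 1.95, Gadd45a by 1.41 and Foxo3 by 1.18. Of p53 targets 9 of 23 were higher and 3 lower, with Pmaip1 (3.10, SE 0.24), a mediator of cell death, beside Cdkn1a.

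Growth signals changed gene by gene. In the IGF axis 9 of 16 measured genes rose and 3 fell. Igf2, a growth factor made by differentiating myoblasts, read 3.92, 4.60 and 6.15 on the MB arrays and 9.28, 9.07 and 9.40 on the D48 arrays, a rise of 4.37 (SE 0.44, adjusted p = 4.82e-08) and of 3.88 without MB replicate 1, and a second probe set rose by 1.72. Igf1 rose by 2.68 from under the filter percentile, the receptor gene Igf2r by 2.06 and Akt2 by 1.48 (SE 0.12), while the binding protein Igfbp2 fell by 2.01 (SE 0.15). Erbb3, a neuregulin receptor, rose by 4.88 (SE 0.30), from 2.58, 3.74 and 4.26 to 8.63, 8.29 and 8.30, and a second Erbb3 probe set changed by -0.03. Fgf21, a hormone of the FGF family, rose by 4.87 (SE 0.38), from 1.87, 2.35 and 3.12 to 8.04, 7.41 and 6.52. Vegfc and Ereg, an EGF receptor ligand, fell by 2.18 and 2.24, and Hgf fell by 1.90.

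Of 35 measured genes of TGF-beta, activin and BMP signalling 14 rose and 8 fell. Fst, which binds myostatin and activin, read 4.70, 4.61 and 4.96 on the MB arrays and 8.40, 8.19 and 8.38 on the D48 arrays, a rise of 3.57 (SE 0.19, adjusted p = 2.92e-12). Tgfb3 rose by 2.45, Chrd, a BMP antagonist, by 2.17 and Tgfb2 by 1.61. Grem1, another BMP antagonist, fell by 2.03 (SE 0.20) and the inhibitory Smad6, a BMP target like the Id genes, by 1.95 (SE 0.27). In the Notch pathway the ligand gene Dll1 rose by 2.21 (SE 0.43) and the receptor gene Notch3 by 1.38 (SE 0.30), and both were smaller without MB replicate 1, at 1.44 and 0.89. Lfng, which adds sugars to Notch, fell by 2.04. Among Wnt genes the receptor Fzd9 rose by 2.79 (SE 0.15), from under the filter percentile, and Fzd6 fell by 1.53 (SE 0.13). In that list 10 of 28 were higher (35.7%) and 6 lower (21.4%). In the Hedgehog pathway 5 of 10 measured genes fell and 0 rose: Hhip by 2.14, Gli2 by 1.10, Ptch1 by 0.78, Gli1 by 0.75 and Smo by 0.49. Gli1 lay under the filter percentile on all 6 arrays, so the size of its fall is uncertain. Cilium genes gave 4 higher (14.3%) and 6 lower (21.4%) of 28, both shares under those of all genes. Among them were Kif3a (1.01, SE 0.10) and Cep290 (-1.50, SE 0.16), and Ift88 changed by -0.27 (SE 0.16, adjusted p = 0.152).

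Matrix genes rose, 37 of 63 measured against 6 that fell, with a median of 0.59, and 34 were higher without MB replicate 1. Dcn, decorin, a small proteoglycan that binds collagen and TGF-beta, read 1.75, 2.03 and 2.59 on the MB arrays and 7.89, 8.52 and 6.76 on the D48 arrays, a rise of 5.60 (SE 0.32, adjusted p = 5.88e-12), with 2 of the 3 MB arrays under the filter percentile. Tgm2, a crosslinking enzyme, rose by 4.48, Postn by 3.50, Col6a1 and Col6a2 by 3.33 each and Col1a1 by 3.03 (SE 0.31). Col1a1 read 4.22, 5.32 and 5.68 on the MB arrays and 7.80, 8.23 and 8.29 on the D48 arrays. Of 9 fibroblast markers 5 passed the filter, with 2 higher and 1 lower, and their summed linear level was 40.2 to 60.1 on the MB arrays and 79.7 to 92.2 on the D48 arrays. Dpep1 (2.72) and Pi16 (1.44) were higher, Pdgfra (-0.42, adjusted p = 0.07) and Col14a1 (0.24, adjusted p = 0.246) were not called, and Dpt, a defining marker, did not pass the filter. The part of these markers in the matrix result was not tested. Adamts5, a proteoglycan protease, rose by 3.20 (SE 0.20), and Timp3 and the urokinase receptor Plaur fell by 1.72 and 1.66. Of 9 measured genes of the complement list 6 rose and 0 fell. But 3 of these, C1qtnf1 (2.81), C1qtnf3 (2.65) and C1qtnf6 (1.51), encode secreted proteins related to C1q and not complement components. Without MB replicate 1 the rises of these 3 genes were 2.44, 1.86 and 1.20. The others were C1ra (1.64) and the inhibitors Serping1 (1.66) and Cd59a (1.63), with C1ra and Serping1 rising from under the filter percentile, and C1qa, C1qb, C1qc, C2 and Cfb did not pass the filter.

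Cytoskeletal genes of motile cells went down as sarcomeric ones went up. Of 47 measured genes of nonmuscle actin and its regulators 23 fell and 5 rose, with a median of -0.26. Lgals3, galectin 3, fell by 1.89 (SE 0.11), Ezr, which ties actin to the membrane, by 1.74, Tagln2 by 1.28 and Anxa2 by 1.10. Ccn2, a target of YAP and SRF, rose by 1.49 (SE 0.34), from 7.86, 7.02 and 7.17 to 8.39, 8.53 and 9.61. Among tubulins and their partners Stmn2, which destabilises microtubules, fell by 2.24 (SE 0.11), Tubb3 by 1.11 and Stmn1 by 1.06. Tubb6 rose by 1.36 (SE 0.13) and Syne1, which anchors nuclei, by 1.88, while Syne2 fell by 1.14.

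Ribosome biogenesis declined, with 34 of 52 measured genes lower and 0 higher and a median of -0.52. Lyar fell by 1.42, Cad, which starts pyrimidine synthesis, by 1.25, Ddx18 by 1.10 and the nucleolar protein gene Npm1 by 0.92 (SE 0.09). The median of this list was -0.86, -0.49 and -0.26 within replicate numbers 1, 2 and 3, so its size depends on which arrays are compared. Without MB replicate 1 the counts were 30 lower and 1 higher, with a median of -0.36. Antioxidant genes fell as well, 19 of 33 against 5 higher, with a median of -0.51. Nqo1, a quinone reductase and Nrf2 target, read 7.48, 6.88 and 6.88 on the MB arrays and 3.40, 3.47 and 3.49 on the D48 arrays, a 12.4-fold fall (log2 change -3.63, SE 0.18). Gclm, of glutathione synthesis, fell by 1.92, Mt2 by 1.74, Gsta4 by 1.63 and Gpx1 by 1.10, while Selenop, a selenium carrier, rose by 3.32. Lysosome and autophagy genes leaned upward, with 28 of 50 higher and 4 lower and a median of 0.32. Map1lc3a rose by 2.00, the heparan-degrading enzyme gene Naglu by 1.59 and Gaa, the acid maltase of muscle, by 1.49. Of proteasome subunits and ubiquitin ligases of muscle 4 of 35 were higher (11.4%) and 5 lower (14.3%), both shares under those of all genes. Immediate early genes divided: Fosl1 fell by 3.12 and Nr4a2 by 2.00, and Nr4a1 rose by 1.25 and Egr1 by 1.17 (SE 0.26).

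The same change of medium was measured in IFT88KD cells on 6 arrays that share none with the control comparison. There 4358 genes passed, 50.7% of those tested, with 22.6% higher and 28.0% lower. Of the 2102 genes higher in control cells 1715 (81.6%) were also higher in IFT88KD cells, which is 88.1% of the IFT88KD rises, and 0 were lower. Of the 2606 lower genes 2133 (81.8%) were also lower, which is 88.5% of the IFT88KD falls, and 1 was higher. Of the 1179 control calls of at least 1 log2, 0 had the opposite sign. Across the 8600 genes, which are not independent, the changes correlated at r = 0.969 and rho = 0.938. These arrays are not a wholly separate repeat, since IFT88KD and control arrays of equal number deviated together, with correlations of 0.304 to 0.708 in MB and 0.450 to 0.671 in D48.

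Sarcomere genes had a median change of 2.54 in IFT88KD cells beside 3.11 in control cells, and mitosis genes -1.07 beside -1.35. Myog rose by 2.88 in IFT88KD cells, from 6.72, 7.52 and 9.17 to 10.73, 10.66 and 10.66. The IFT88KD MB arrays thus lay higher than the control MB arrays of equal number while the D48 levels nearly coincided. Tested directly, the change differed between the siRNAs for 4 of the 8600 genes (0.0465%), with 306 at an unadjusted p under 0.05. Those 4 were Fst, Ak1, Ptp4a3 and Stmn2, each at an adjusted p of 0.0495. Fst rose by 3.57 in control and by 2.07 in IFT88KD cells. Ak1, adenylate kinase, rose by 1.32 (SE 0.12) in control cells and changed by 0.30 in IFT88KD cells. Ptp4a3 rose by 0.70 (SE 0.12) in control cells and changed by -0.24 in IFT88KD cells, and Stmn2 fell by 2.24 and by 1.40. With any 1 array of these groups left out 0 to 2 genes passed.

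**Figure D4:**
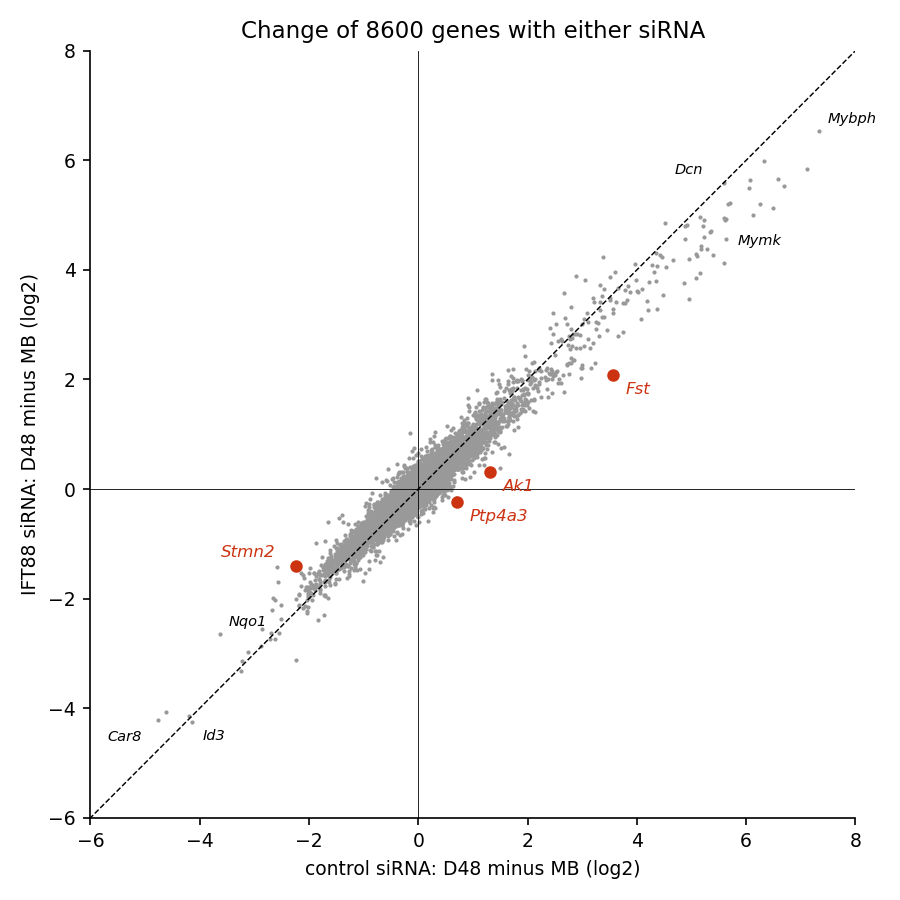
Change from MB to D48 (log2) with control siRNA on the horizontal and with IFT88 siRNA on the vertical axis, 1 point for each of 8600 genes, with a dashed line of equal change. Points follow the line (r = 0.969), and the 4 red genes are those whose change differed between the siRNAs at an adjusted p under 0.05.

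Differentiating and quiescent (G0) control cells were compared directly. The groups differed in 5677 genes, 66.0% of those tested, with 26.3% higher at 48 h and 39.8% lower. The median difference over all genes, -0.13, became -0.01 after quantile normalisation or centring. The excess of lower genes shrank too, to 2838 higher and 2869 lower with quantile normalisation and 2773 and 2851 with centring. Without either it was 2258 and 3419. The D48 arrays are those of the comparison above, so these differences share them. Mitosis genes were 3.11 higher at the median, with 65 of 66 called higher, and for 64 of 66 all G0 arrays lay below all D48 arrays and these below all MB arrays. That order held for 925 of all 8600 genes. The mitosis median level was 7.29 in MB, 6.09 in D48 and 2.79 in G0. Aurkb, at 6.59, 6.84 and 6.37 in MB and 4.88, 4.75 and 5.05 in D48, was 3.57 higher than in G0 (SE 0.12). Birc5, Cep55 and Cenpe, all of mitosis, were 4.47, 4.54 and 4.72 higher. Which cells of the D48 cultures hold these transcripts was not analysed here.

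Arrest genes separated the states too. Cdkn1c was 4.76 higher at 48 h than in G0 (SE 0.26), whereas Txnip was lower, with a difference of -2.91, and Cdkn1b was lower, with -1.19. Sarcomere genes were 2.06 higher at the median, with 53 of 64 higher and 6 lower. For 37 of the 64 the arrays stood in the order MB, G0, D48, against 296 of 8600 genes. Myog read 8.49, 8.05 and 8.14 in G0, below all D48 arrays and within the range of the MB arrays. Glycolysis and hypoxia genes were lower than in G0, 26 of 27 with a median of -2.40, as were lysosome genes (44 of 50, median -0.88) and chemokines and inflammatory genes (25 of 29, median -1.52). Abca1 (-6.17) and Slpi (-7.89), a secreted protease inhibitor, were among the largest such differences.

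**Figure D5:**
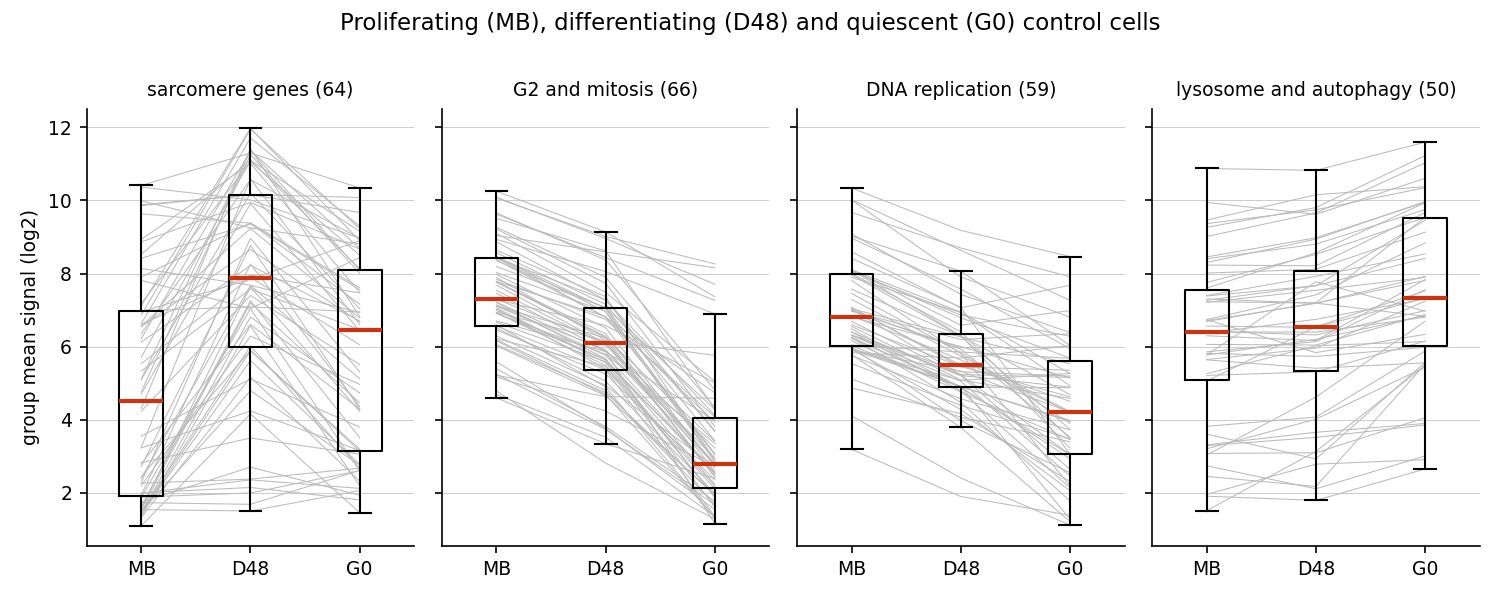
Mean log2 signal of each measured gene of 4 lists in proliferating (MB), differentiating (D48) and quiescent (G0) control cells, 1 grey line per gene. Boxes span the quartiles with the median in red, and whiskers reach the last gene within 1.5 box lengths. Mitosis medians stand at 7.29, 6.09 and 2.79 in the 3 states and sarcomere medians at 4.51, 7.87 and 6.45.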

How the data were processed

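Total RNA of C2C12 cells was extracted with TRIzol and 8 ug were labelled for Affymetrix mouse arrays, per the labels' protocols. The deposited table holds log2 expression values of 22690 probe sets on 24 arrays, made with GCOS, Affymetrix Expression Console and affy per the submitters' processing notes. The sources used here give neither versions nor a normalisation method, and the values do not tell if all states were normalised as 1 set. Sorted values of the 6 arrays compared differed by a median of 0.107 log2. Of the probe sets 20380 carried 1 gene symbol, 691 several and 1555 none.

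A gene was represented by its probe set of highest mean, and x_at sets were passed over where a gene had another. It was tested if 3 or more arrays read above their 40th percentile. All 24 arrays were fitted with limma 3.58.1 in R 4.3.3, 1 coefficient for each of 8 groups and no replicate block, with Benjamini-Hochberg adjustment over 8600 genes at 0.05. Motifs were counted in RefSeq windows with Python 3.11.15, pandas 2.3.3 and numpy 2.4.6, and figures drawn with matplotlib 3.10.9.

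The comparison, the 43 gene lists and 11 marker lists, and the naming rule were chosen with earlier results of these data known. Named genes were the 15 largest rises and 15 largest falls without overlap, up to 8 called members of each list, all members of 3 lists (myogenic factors, their inhibitors, arrest genes), all markers, and 6 each way of the differences from IFT88KD and G0 cells. Outside this rule Fos, Plp2, Ift88, Orc3, Orc4 and the 6 muscle genes of opposed probe sets were chosen after their values were seen. Of 390 named genes 356 were called, and of 264 other probe sets of these 108 were smaller by over 1.5 times or opposite in sign, 23 of them opposite.

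Replicate numbers, taken from the sample titles, were checked for pairing. Control MB and D48 arrays of equal number deviated together (r = 0.164 to 0.284, against -0.223 to 0.060 for unequal numbers). The numbers may therefore pair them, though the labels do not say so, and the main fit took no account of it. The block over all arrays ended 0 named calls, and the block over the compared groups only ended 4. On simulated data limma called 53.7% of 67 genes changed by 0.5 log2, 95.5% of 67 by 1 and 100% of 66 by 2, with 6 false calls among 172. The simulation changed only 200 genes, with independent noise of equal spread in all groups and no pairing. The arrays differ from it in each of these, so its rates need not hold for them.

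Alternatives were quantile normalisation, median centring, dropping the filter or raising it to the 60th percentile, averaged probe sets, each probe set on its own, trend and robust estimation, array weights, replicate blocks, the compared groups alone, treat, and each array left out.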

Additional observations from a re-analysis of the deposited data

Results flagged for a closer look

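Between the siRNAs the differentiation change of 4 genes differed by a test of the difference itself. Fst, the antagonist of myostatin and activin, rose less in IFT88KD cells, with a difference of -1.50 (SE 0.27). Ak1 rose less, with a difference of -1.02 (SE 0.17), but its second probe set changed by -0.08 in control cells. The value for Ptp4a3, a phosphatase, was -0.94 (SE 0.17), and that for Stmn2 was 0.84 (SE 0.16), a smaller fall in IFT88KD cells. The adjusted p in limma was 0.0495 for each of the 4 genes, close to the threshold of 0.05. With single arrays left out these calls were mostly lost, as given with the other alternatives.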

How the results depend on the processing

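For the control comparison most alternatives stayed within 1.5 times of 4708 genes. They ran from 3815 (a filter at the 60th percentile, with 6653 genes tested) to 5553 (array weights). Leaving out single arrays gave 4101 to 4564. Testing each probe set on its own, 13873 in place of 8600 genes, gave 7315 calls for this comparison. It gave 6730 for IFT88KD cells and 8768 against G0, and treat left 493 genes of the control comparison. Quantile normalisation made 48.7% of the calls higher genes and centring 34.8%, against 44.6%. The paired fit, with a replicate block over all arrays, gave 5091 genes, and with the compared groups only 4800. Over all arrays the block ended 0 named calls and added Hey1 (0.45, adjusted p = 0.0217) and Pdgfra (-0.42, adjusted p = 0.0228), which some other alternatives also called. With the compared groups only it ended 4, those of Cdkn2d, Hes6, Psma2 and Stat2. The difference between siRNAs was least settled. In limma fits it gave 0 genes with no filter (451 at an unadjusted p under 0.05), with averaged probe sets (302), with each probe set alone (446), with the compared groups only (278) and with the replicate block in those groups (546). The replicate block over all arrays gave 6 genes, array weights 18 and single arrays left out 0 to 2. The cause was not tested. Named genes gave 0 reversals, 92 calls lost and 21 gained over the alternatives other than treat and each probe set on its own. Those alternatives were not part of this tally. Of 54 list medians 11 changed sign under some alternative, among them FGF signalling, respiratory chain, proteasome, stress response and cilium, all near 0. Signals near the floor of the arrays limit the size of changes of genes under the filter percentile, and 3 arrays a group limit precision.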

Other observations

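Several gene groups moved little as a whole yet held members that changed. Of 14 measured integrins and partners 6 rose and 3 fell. Itga7, the muscle laminin receptor, read 6.72, 7.27 and 7.33 on the MB arrays and 8.47, 8.53 and 8.54 on the D48 arrays and rose by 1.41 (SE 0.16, adjusted p = 2.43e-07). Itgb5 rose by 1.46 (SE 0.15), Itgb6 by 2.88 from under the filter percentile, and Itgb7, a leukocyte integrin chain, was lower (-1.50, SE 0.17). Spry1, a brake on growth factor signalling that quiescent satellite cells express, rose by 2.61 (SE 0.21), from 3.37, 4.12 and 3.86 to 6.20, 6.39 and 6.58, with no overlap. In sterol and fatty acid synthesis 4 of 31 measured genes rose and 7 fell. Me1, malic enzyme, fell by 1.24 (SE 0.19) and Dhcr7, the last enzyme of cholesterol synthesis, rose by 0.94 (SE 0.18). This list had a median of -0.16 in control and 0.38 in IFT88KD cells, and 0 of its genes passed the test of the difference between siRNAs.

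Stress sensors and inflammatory genes were mixed. Atf6, a sensor of unfolded proteins, rose by 1.21 (SE 0.15) and the chaperone gene Dnajb9 by 1.06 (SE 0.25), while Shmt2, a mitochondrial serine enzyme, fell by 0.81 (SE 0.11). The signal inhibitor gene Socs3 rose by 1.23 (SE 0.31) and Relb by 1.06 (SE 0.12), and Ptgs2, the inducible cyclooxygenase, fell by 1.17 (SE 0.33). Ifitm1 fell by 1.39 (SE 0.22), from 7.45, 8.35 and 8.13 to 6.71, 6.66 and 6.37. Of 3 measured adipocyte markers only Pparg, the regulator of fat cells, was called and fell by 1.98 (SE 0.19), with Lpl at 0.31 (adjusted p = 0.277) and Retn at -0.21 (adjusted p = 0.486). Both measured markers of bone and cartilage were lower, Sp7 with a change of -1.51 (SE 0.20) and Sox9 with -0.79 (SE 0.19). Pparg and Sp7 lay under the filter percentile on all 3 D48 arrays, so the size of their falls is uncertain. Of 5 measured neuron and glia markers 4 were lower, with Nefl, a neurofilament, at -2.11 (SE 0.29). Of 10 smooth muscle markers 5 were higher and 0 lower, and Mylk, the light chain kinase, rose by 2.90 (SE 0.17) from under the filter percentile.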
